A study of Mus musculus with 11 samples.

Results

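The 5 genes described here, Pdx1, Nkx6-1, Nkx2-2, Mnx1 and Pax6, encode homeobox transcription factors of pancreatic beta cells. They were chosen by gene symbol: each region or promoter window that the deposited tables annotate to 1 of the 5 was taken, out of 31575 genes in those tables. This gave 14 of 31479 regions for H3K27ac, the acetylated histone mark of active promoters and enhancers, of which 11 were promoter and 3 distal regions. It gave 9 of 20086 regions for H3K27me3, the mark that Polycomb complexes place at silenced genes, of which 4 were promoter regions. It also gave 5 of 22332 promoter windows for binding of the LIM-homeodomain factor ISL1.

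All 3 were mapped by CUT&Tag, where a transposase held by an antibody cuts the DNA beside the mark or protein it has bound. Histone marks were measured at postnatal day 9 (P9) in Control mice (Isl1loxP/+;Neurod1-cre) and in Isl1CKO mice (Isl1loxP/loxP;Neurod1-cre), with 2 libraries per genotype and mark. Each library was a pool of 3 to 4 pancreases and about 20000 cells sorted for tdTomato, and ISL1 was mapped in Control cells of the embryonic stage E14.5 (2 libraries in 1 pooled column) and at P9 (1 library). Both genotypes carried the Neurod1-Cre transgene, the Ai14 tdTomato reporter and a C57BL/6 background, and the animals were littermates of both sexes. The Control thus also carried 1 floxed Isl1 allele with Cre, and Cre and reporter mark the Neurod1-expressing lineage, so each library mixes the endocrine cell types. In such bulk libraries, fewer cells of a type and less mark per cell cannot be told apart.

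Homeobox factors bind short DNA motifs through a homeodomain and act in combination during pancreas development. Pdx1 is needed for the pancreas to form and later keeps insulin and other beta cell genes active. Nkx6-1 and Nkx2-2 specify and maintain beta cells, Mnx1 acts in dorsal pancreas budding and again in beta cells, and Pax6 is shared by all islet endocrine types and by the eye and brain.

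The DNA upstream of the RefSeq starts is shown because ISL1 was scored around gene starts. Capitals mark TAAT on either strand (TAAT or ATTA), the core bound by LIM-homeodomain and many other homeodomain proteins. The sequences are the 250 bases before the RefSeq start on build GRCm38.p6, printed in the direction of transcription. They lie at chr5:147269847-147270096 on the plus strand for Pdx1, chr5:101664712-101664961 on the minus strand for Nkx6-1, chr5:29478471-29478720 on the minus strand for Mnx1 and chr2:105668646-105668895 on the plus strand for the first of 2 Pax6 starts. These starts need not be those of the tables, on which the ISL1 windows are centred. From start to 3′ end RefSeq gives 5752 bp for Pdx1, 5528 bp for Nkx6-1, 4648 bp for Mnx1 and 29515 bp for Pax6, where the tables give 5890, 6858, 5437 and 28465 bp.
Pdx1: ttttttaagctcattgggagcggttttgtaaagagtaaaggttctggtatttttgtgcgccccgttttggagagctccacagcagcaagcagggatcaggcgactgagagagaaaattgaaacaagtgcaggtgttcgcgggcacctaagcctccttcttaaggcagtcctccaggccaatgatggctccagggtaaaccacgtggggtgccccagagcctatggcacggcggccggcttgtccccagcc
Nkx6-1: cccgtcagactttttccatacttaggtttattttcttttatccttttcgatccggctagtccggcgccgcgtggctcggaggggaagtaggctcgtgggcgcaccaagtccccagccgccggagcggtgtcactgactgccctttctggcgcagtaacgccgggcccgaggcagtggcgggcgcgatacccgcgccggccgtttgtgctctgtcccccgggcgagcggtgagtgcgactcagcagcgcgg
Mnx1: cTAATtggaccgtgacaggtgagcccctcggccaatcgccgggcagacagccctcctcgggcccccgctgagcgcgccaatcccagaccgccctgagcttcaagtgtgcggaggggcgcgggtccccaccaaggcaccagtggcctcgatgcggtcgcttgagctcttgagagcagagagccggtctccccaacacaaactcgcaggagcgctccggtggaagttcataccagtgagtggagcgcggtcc
Pax6: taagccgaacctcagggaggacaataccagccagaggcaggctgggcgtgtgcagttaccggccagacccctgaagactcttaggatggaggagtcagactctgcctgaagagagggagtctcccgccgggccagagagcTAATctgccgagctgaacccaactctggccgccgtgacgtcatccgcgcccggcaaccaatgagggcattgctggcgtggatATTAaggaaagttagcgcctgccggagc
TAAT occurred 0 times before Pdx1 and Nkx6-1, 1 time before Mnx1 and 2 times before Pax6, and 54.9% of 32851 RefSeq promoter stretches of this length held at least 1. CACTT on either strand, the core bound by NKX2 class homeodomains, occurred 1 time before Pdx1 and Mnx1 and 0 times before Nkx6-1 and this Pax6 start, against 40.7% of all promoters holding it. The Nkx6-1 stretch was rich in CpG, with an observed-over-expected ratio of 1.13, higher than in 98.5% of promoters, whose median was 0.373. The ratio was 0.538 for Pdx1, 0.763 for Mnx1 and 0.652 for Pax6. These matches describe letters in a window and show no site of binding.

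The ISL1 values listed for Control cells varied among the 5 genes. The deposited ISL1 value is a whole number per window of 3 kb on each side of a gene start, whose unit is not stated. At E14.5 the values were 7 at Nkx2-2, 6 at Pax6, 5 at Nkx6-1, 4 at Pdx1 and 0 at Mnx1. These ranked high among all windows: 0.502% reached at least 7, 1.05% at least 6, 2.06% at least 5 and 4.29% at least 4. At P9 the table lists a value of 1 at Nkx6-1, Nkx2-2 and Mnx1 and 0 at Pdx1 and Pax6. A value of at least 1 was thus listed at 4 of 5 genes at E14.5, where 37.7% of all windows had one, and at 3 of 5 at P9, where 8.86% did. Mnx1 was listed at 1 at P9 and at 0 at E14.5. The values summed over all windows were 16668 at E14.5 and 2255 at P9, so the columns differ in overall signal, and with 1 column per stage there is no replicate error and no test. Among genes with an H3K27ac promoter and no H3K27me3 promoter, as at Nkx6-1 and Nkx2-2, 61.1% of windows had a value of at least 1 at E14.5 and 9.96% at P9. Among genes listed with promoter regions of both marks, as are Pdx1, Mnx1 and Pax6, 66.9% and 18.7% did.

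**Figure D1:**
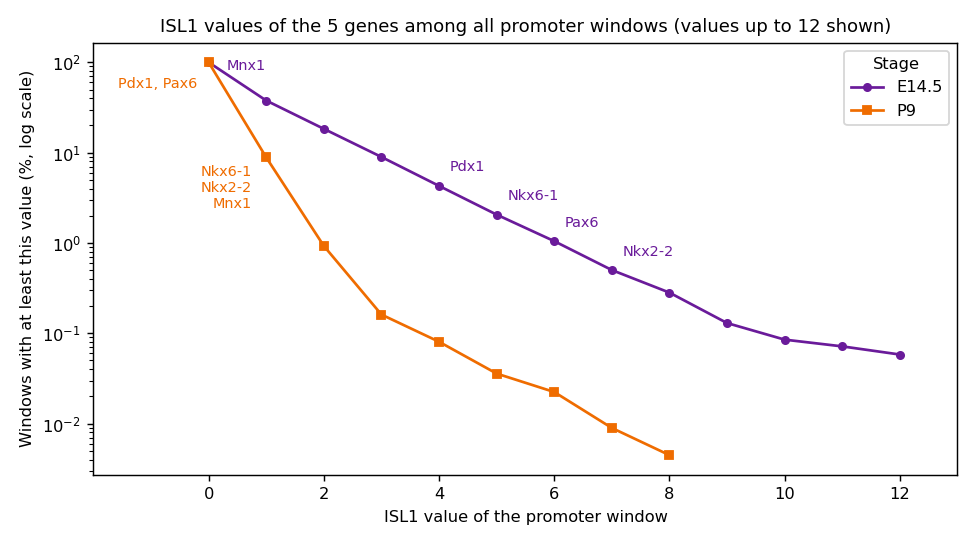
Share of all 22332 promoter windows (percent, log axis) with at least the ISL1 value on the x axis, at E14.5 (purple circles) and P9 (orange squares), with the 5 genes written at their own value in the colour of the stage. At E14.5 Nkx2-2, Pax6, Nkx6-1 and Pdx1 lie at 7, 6, 5 and 4, and at P9 none of the 5 exceeds 1.

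The chromatin of Control cells at P9 separated the genes by their marks. Nkx2-2 carried H3K27ac and had 0 regions of H3K27me3, also within 100 kb of its start. Nkx6-1 had H3K27ac over its start and H3K27me3 only in 2 distal regions. Pdx1, Pax6 and Mnx1 were listed with a promoter region of each mark. Regions were listed once for both genotypes, and the Pax6 H3K27me3 region held 7 and 4 counts in Control against 0 and 58 in Isl1CKO. At so few Control counts, H3K27me3 at the Pax6 promoter is not established in Control, also where it is counted as an overlap below. Of the 14 H3K27ac regions, 5 overlapped an H3K27me3 region by at least 1 base, against 6.86% of all 31479 H3K27ac regions. By class, 3 of the 11 promoter regions did so, against 10.2% of all H3K27ac promoter regions. Of the 3 distal regions 2 did, against 4.55% of all distal ones. At Pdx1 the regions over the start shared 2627 bp, which was 99.5% of the H3K27ac and 97.9% of the H3K27me3 region. At Mnx1 the H3K27ac region over the start, 1171 bp wide, lay inside an H3K27me3 domain of 10564 bp. At Pax6 the relation was the opposite, with an H3K27me3 region of 373 bp inside an H3K27ac region of 6901 bp that was wider than 99.9% of H3K27ac promoter regions. Both distal overlaps, at Nkx6-1 and Mnx1, had the H3K27ac region wholly inside the H3K27me3 region. These 2 H3K27me3 regions held 13 and 207 counts in Control at Nkx6-1 and 10 and 45 at Mnx1. The H3K27ac region over the Mnx1 start held 16 and 139. The overlaps at Mnx1 and Nkx6-1 thus rested mainly on Control replicate 2. Whether both marks sat on the same DNA molecules or in different endocrine cells cannot be told apart in these libraries.

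**Figure D2:**
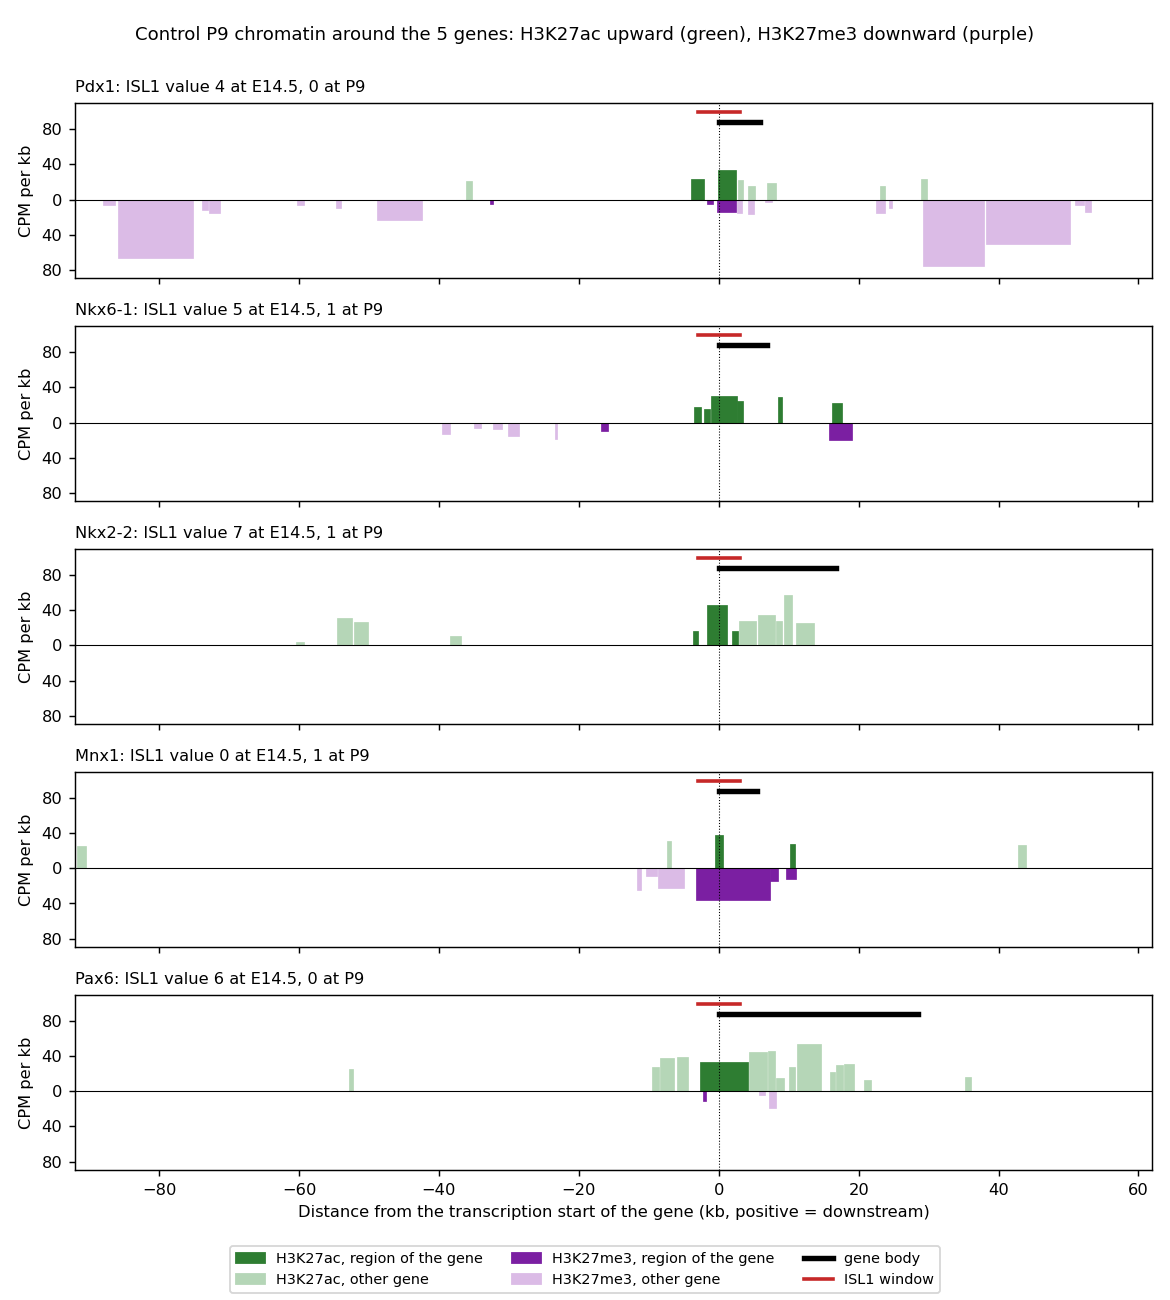
Control levels around the 5 gene starts, in CPM per kb (mean of 2 libraries), with H3K27ac drawn upward in green and H3K27me3 downward in purple against distance from the start in kb. Dark blocks are regions annotated to the gene, pale blocks to other genes, the black bar is the gene body and the red bar the ISL1 window. Mnx1 lies in a domain of H3K27me3, Nkx2-2 has none, and Pdx1 stands between the domains of Gsx1 and Cdx2.

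Levels were compared per length, as CPM per kb, where CPM is the count scaled to the library's total by TMM normalization. For H3K27ac over the start in Control replicates 1 and 2, Nkx2-2 had 55.7 and 36.7 CPM per kb, Pax6 35.2 and 33.0, Pdx1 33.0 and 33.6, and Nkx6-1 31.2 and 28.8. Nkx2-2 was thus the highest of these 4 in both libraries and Nkx6-1 the lowest, while Pax6 and Pdx1 did not differ beyond their spread. Mnx1 had 10.5 and 65.1, so it was the lowest of the 5 in one library and the highest in the other. Among all H3K27ac promoter regions, the mean level per kb stood at percentile 89.6 for Nkx2-2, 78.4 for Mnx1, 70.7 for Pax6, 69.2 for Pdx1 and 60.4 for Nkx6-1. Taken per region, without dividing by width, Pax6 stood at percentile 99.8. For H3K27me3, Mnx1 had 34.6 and 37.5 CPM per kb, Pdx1 19.7 and 9.64, and Pax6 16.5 and 6.30. Mnx1 was the highest in both libraries, and the Pdx1 and Pax6 values overlapped.

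The libraries behind these values held 681047 to 1815511 counts in regions for H3K27ac and 1202276 to 2276887 for H3K27me3. Among the H3K27ac libraries, Control replicate 2 stood apart, with r = 0.451 to 0.497 to the others across regions, against 0.680 to 0.722 among those. All 11 markers of islet endocrine cells had an H3K27ac region, with summed levels of 629 to 790 CPM per library. The other cell types had fewer: 3 of 10 acinar, 6 of 8 ductal, 2 of 8 endothelial, 1 of 8 mesenchymal, 3 of 8 immune and 3 of 8 glial and neural markers. The endothelial sum was 84.4 CPM in Control replicate 2, of which 62.5 lay in 1 Pecam1 region, and 18.3 to 34.4 in the other libraries. The mesenchymal sum was also highest there, at 33.4 against 11.6 to 22.8. Acinar and ductal sums were highest in Control replicate 1, at 218 against 117 to 141 and 245 against 144 to 208. Immune sums were 33.5 to 84.1 and glial and neural sums 61.8 to 79.1. The part of these cell types in the results was not tested.

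H3K27ac was then compared between the genotypes. No region of the 5 genes passed the edgeR quasi-likelihood test after Benjamini-Hochberg adjustment, and the adjusted p ranged from 0.846 to 0.998. The background was the same, with 0% of 30036 tested regions called. DESeq2 also called 0 of the 14 regions, and 0.0966% of all. Of the 14 regions, 4 measured higher and 10 lower in Isl1CKO, where 51.4% of all tested regions measured lower. The median log2 fold change was -0.38 for the 14 and -0.03 for all. Both Isl1CKO libraries lay above both Control libraries at 1 region (18.1% of all regions did so) and below them at 4 (19.4%). The 11 promoter regions split into 3 higher and 8 lower, and the 3 distal regions into 1 and 2. With library sizes implied by the authors' own fold changes, the median of all H3K27ac regions moved from -0.03 to 0.61. The 14 regions then split into 8 higher and 6 lower, with a median of 0.40. Without Isl1CKO replicate 2 they split into 7 and 7, with a median of 0.014.

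Pdx1 (ENSMUSG00000029644) measured alike on average at its start and lower upstream, neither past the test. The region over the start (chromosome 5, 147206640 to 147209280, GRCm39) measured 87.2 and 88.8 CPM in Control against 120 and 56.9 in Isl1CKO. The Isl1CKO libraries lay on either side of the Control ones, and the log2 fold change was -0.02 (SE 0.41, 95% interval -0.88 to 0.84), or 0.84 with the authors' implied sizes. The second Pdx1 region lay at -2171 bp from the start (chromosome 5, 147202746 to 147204598) and measured 34.7 and 52.1 CPM in Control against 16.7 and 28.8 in Isl1CKO. Here the groups did not overlap, and the log2 fold change was -0.90 (SE 0.59, 95% interval -2.16 to 0.36), with an edgeR adjusted p of 0.901. It was -1.38 without Isl1CKO replicate 2 and -0.57 without Control replicate 2.

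Nkx6-1 (ENSMUSG00000035187) had the most H3K27ac regions annotated to it of the 5 genes, 6, a number that 4.72% of 16445 genes reached. This ranking rests on the annotation. Within 100 kb of the start, whatever gene they were annotated to, Pax6 had 16 regions, Nkx2-2 12, Pdx1 and Nkx6-1 8 each and Mnx1 6. The Nkx6-1 start (chromosome 5, 101810267 to 101813907) measured 113 and 105 CPM in Control against 141 and 122 in Isl1CKO. Both Isl1CKO libraries were above both Control libraries, yet the log2 fold change was only 0.27 (SE 0.32, 95% interval -0.42 to 0.95; edgeR adjusted p 0.938). It was 0.97 with the authors' implied sizes and 0.06 with abundance-dependent loess offsets. The larger of its 2 distal regions, 16229 bp downstream of the start (chromosome 5, 101795231 to 101796633), measured 36.3 and 24.7 in Control against 41.1 and 35.8 in Isl1CKO. Its groups overlapped, and the estimate was 0.33 (SE 0.57). The other 4 regions ranged from -0.67 to 0.26, with overlapping groups.

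Nkx2-2 (ENSMUSG00000027434), a repressor of other endocrine fates in beta cells, measured 156.7 and 103 CPM in Control against 167.4 and 138 in Isl1CKO at its start (chromosome 2, 147035032 to 147037842). The groups overlapped, since Control replicate 1 exceeded Isl1CKO replicate 2. The estimate was 0.23 (SE 0.32, 95% interval -0.46 to 0.92), turning to -0.05 when Control replicate 2 was left out. Its other 2 promoter regions stood at -0.54 and -0.61.

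Mnx1 (ENSMUSG00000001566) had the lowest p of the 14 regions, and this rested on 1 library. The region over its start (chromosome 5, 29682788 to 29683958) held 16 and 139 counts in Control against 5 and 14 in Isl1CKO, which is 12.35 and 76.2 against 7.61 and 9.84 CPM. Both Isl1CKO libraries were below both Control libraries, but Control replicate 1 was close to them and Control replicate 2 held 71.9% of the scaled signal of the region. The log2 fold change was -2.32 (SE 0.83, 95% interval -4.07 to -0.57), with an edgeR unadjusted p of 0.0127 and an adjusted p of 0.846. Of all tested regions, 3.12% were lower at an unadjusted p below 0.05. Without Control replicate 2 the log2 fold change was -0.48. Without Control replicate 1 it was -3.08 and the region was called, at an edgeR adjusted p of 0.00584, in a fit that called 0.756% of regions lower and left Control with that 1 library. The distal Mnx1 region (chromosome 5, 29672595 to 29673210) measured 16.2 and 18.1 in Control against 10.7 and 6.32 in Isl1CKO, without overlap, at -1.04 (SE 0.97) and an edgeR adjusted p of 0.923.

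Pax6 (ENSMUSG00000027168) varied least between libraries among the 5 starts in H3K27ac (chromosome 2, 105496514 to 105503414), at 243 and 227 CPM in Control against 224 and 216 in Isl1CKO. Both Isl1CKO libraries lay just below both Control libraries. The log2 fold change was -0.10 (SE 0.26, 95% interval -0.64 to 0.45), or 0.58 with the authors' implied sizes.

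In the authors' deposited table, H3K27ac was called higher in Isl1CKO over the starts of Nkx6-1 (log2 fold change 0.91, adjusted p 0.0163) and Nkx2-2 (0.86, adjusted p 0.0220). Their table called 27.8% of all regions higher. The authors' deposited table called 1 of the 14 regions lower, the Mnx1 start (-1.81, adjusted p 0.000589), beside 9.25% of all regions.

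**Figure D3:**
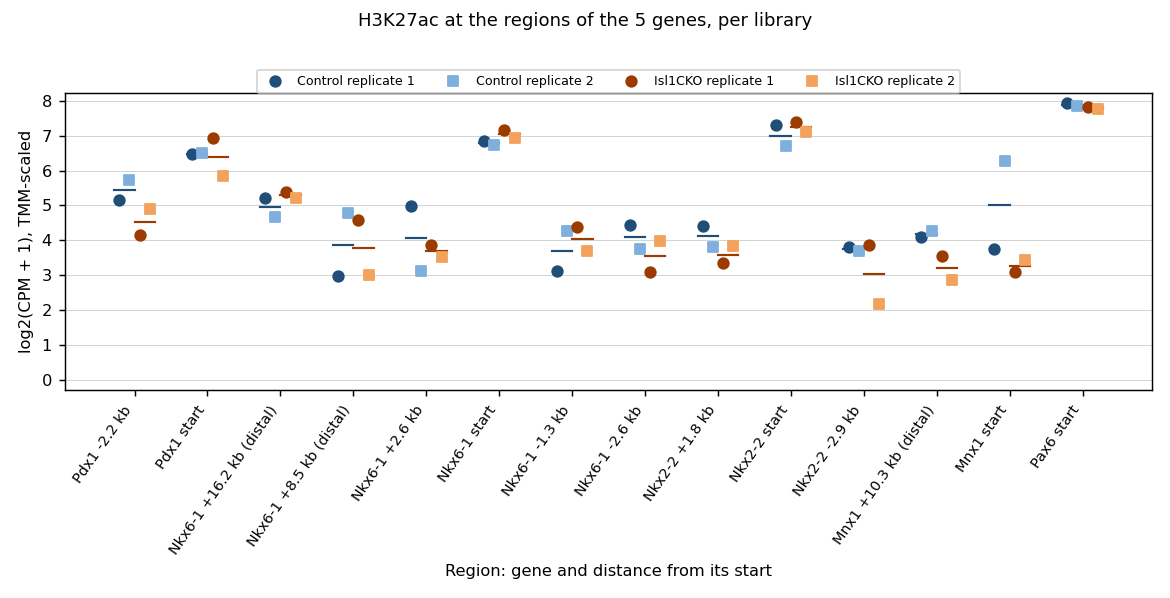
H3K27ac at the 14 regions of the 5 genes, as log2(CPM + 1) per library, with Control in blue, Isl1CKO in orange, circles for replicate 1, squares for replicate 2 and bars for the mean of the log2 values. At the Mnx1 start the square of Control replicate 2 stands alone above the other 3 libraries, while at the Pax6 start the 4 values lie between 216 and 243 CPM.

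H3K27me3 was compared in the same way. The edgeR quasi-likelihood test called 0 of the 8 tested regions of these genes, at adjusted p of 1.00 after Benjamini-Hochberg adjustment, and 0% of 19434 regions. DESeq2 called 0 of the 8, and 0.633% of all. Of the 8, 4 measured higher and 4 lower, where 47.5% of all tested regions measured lower. Their median was -0.11, beside 0.05 for all. Both Isl1CKO libraries were above both Control libraries at 1 region (18.7% of all) and below at 1 (16.7%). With the authors' implied sizes, the median of all H3K27me3 regions moved to -0.51, and the 8 split into 2 higher and 6 lower with a median of -0.62. Without Control replicate 2 they split into 5 higher and 3 lower with a median of 0.64, and without Isl1CKO replicate 1 also into 5 and 3, with a median of 0.19.

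The Mnx1 domain was the best measured of these regions (chromosome 5, 29676150 to 29686713). It held 415 and 674 counts in Control against 673 and 664 in Isl1CKO, or 366 and 396 against 288 and 282 CPM. The groups did not overlap and the libraries of each genotype lay close together. The log2 fold change was -0.42 (SE 0.19, 95% interval -0.82 to -0.01), with an edgeR unadjusted p of 0.0434 and an adjusted p of 1.00, and 2.98% of all regions were lower at an unadjusted p below 0.05. It was -0.25 with loess offsets and -0.96 with the authors' implied sizes. H3K27ac over the same start also measured lower in Isl1CKO, as given above. The 2 distal Mnx1 regions stood at -0.55 and 0.18.

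Pdx1 carried weaker H3K27me3 that varied between replicates. Over the start (chromosome 5, 147206585 to 147209266) it measured 52.9 and 25.8 CPM in Control against 30.3 and 68.9 in Isl1CKO, with overlapping groups and a log2 fold change of 0.34 (SE 0.59). Closely upstream (chromosome 5, 147205079 to 147205901) it measured 5.29 and 3.52 in Control against 8.55 and 10.2 in Isl1CKO. This was the 1 region without overlap upward, at 1.09 (SE 1.37), on 6 to 24 counts per library. One more Pdx1 region, annotated as an exon (chromosome 5, 147174036 to 147174551), held 3 and 5 counts in Control against 0 and 42 in Isl1CKO and did not pass the filter on low counts. Unfiltered, its log2 fold change was 1.64 (SE 1.98).

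The distal Nkx6-1 region downstream of the gene (chromosome 5, 101793828 to 101797162), which encloses the distal H3K27ac region, held 13 and 207 counts in Control against 40 and 60 in Isl1CKO. Control replicate 2 was far above and Control replicate 1 below both Isl1CKO libraries. The estimate was -1.65 (SE 0.82), turning to 0.89 when Control replicate 2 was left out, which held 69.2% of the scaled signal. The other distal Nkx6-1 region stood at -0.41. At Pax6 (chromosome 2, 105497051 to 105497423) there were 7 and 4 counts in Control against 0 and 58 in Isl1CKO, so its log2 fold change of 1.54 (SE 1.73) rested on Isl1CKO replicate 2 and was -5.88 without it.

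The authors' deposited table called 3 of the 9 regions lower: the distal Nkx6-1 region (log2 fold change -2.06, adjusted p 7.66e-08), the distal Mnx1 region that encloses the distal H3K27ac region (-1.05, adjusted p 0.0267) and the Mnx1 domain (-0.96, adjusted p 0.00583). It called 29.6% of all regions lower. It called 0 of the 9 higher, beside 9.17% of all regions.

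**Figure D4:**
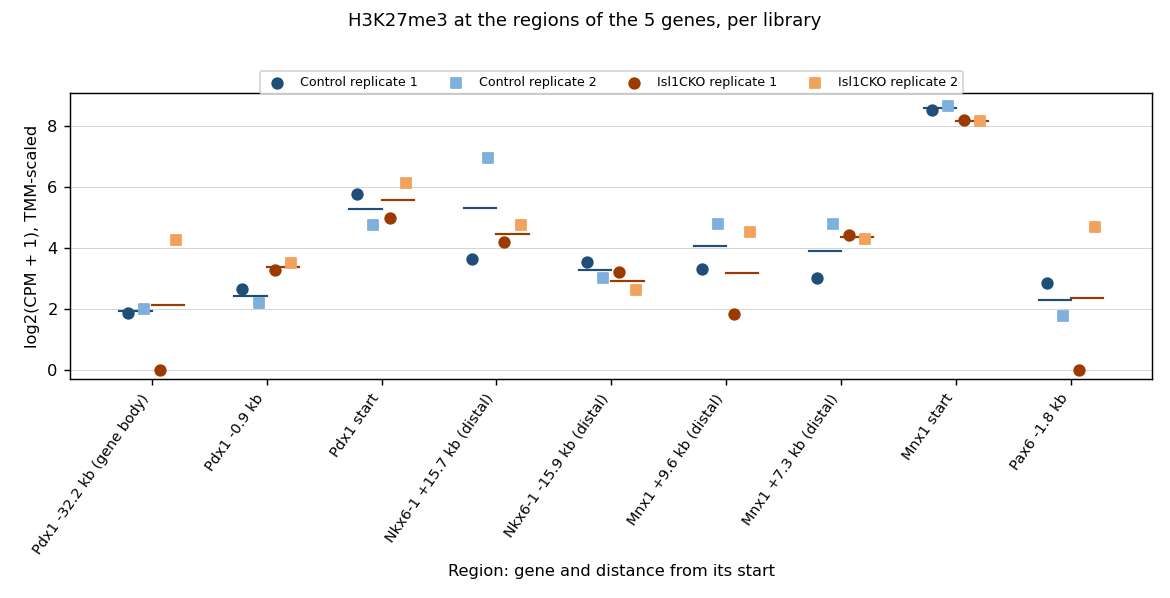
H3K27me3 at the 9 regions of the 5 genes, as log2(CPM + 1) per library, with the same colours, symbols and bars as for H3K27ac. The 4 libraries lie close together over the Mnx1 start, between 282 and 396 CPM, whereas the distal Nkx6-1 region and the Pax6 region each have a single high library.

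**Figure D5:**
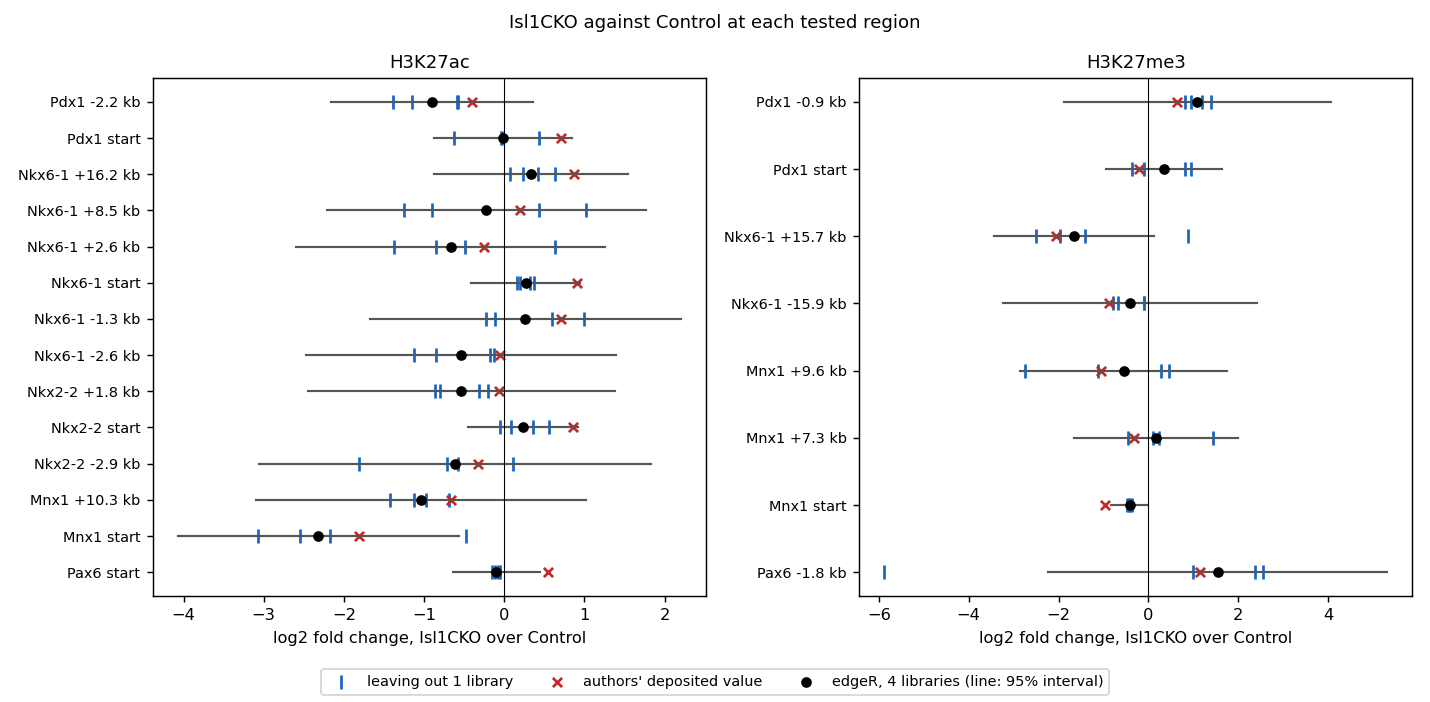
Log2 fold changes of Isl1CKO over Control at each tested region of H3K27ac and H3K27me3, with the edgeR estimate from 4 libraries as a black dot and its 95% interval as a line, the authors' deposited value as a red cross and the values leaving out 1 library as blue ticks. The interval excludes 0 at the Mnx1 start for both marks, before adjustment, and the ticks of the Mnx1 H3K27ac region reach from -3.08 to -0.48.

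Regions within 100 kb that the tables annotate to other genes extend the picture at 3 loci. Around Pax6, 15 further H3K27ac regions were annotated to the noncoding genes Pax6os1, Paupar, Gm57419 and Gm13954. Of these, 12 measured lower and 3 higher, where 51.4% of all tested regions measured lower. Both Isl1CKO libraries were below both Control ones at 8, against 19.4% of all regions, and the median was -0.59 on the log2 scale, while edgeR called 0. The sign depends on scaling: with the authors' implied sizes 7 of 15 were lower and the median was 0.03, against 0.61 for all regions. Relative to the median of all regions, theirs was -0.57 with TMM scaling and -0.59 with the authors' implied sizes. Summed over the 10 regions inside the Pax6 gene body, H3K27ac measured 793 and 687 TMM-scaled CPM in Control against 548 and 546 in Isl1CKO. This sum is not given with the authors' implied sizes, under which it may differ. The region from 4289 to 6964 bp downstream of the start, annotated to Pax6os1, which overlaps Pax6, measured 119 ± 29.4 CPM in Control against 64.6 ± 9.82 in Isl1CKO (SD, n = 2). Its log2 difference was -0.89 (SE 0.37; edgeR adjusted p 0.850). It was singled out after its values were seen.

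Around Nkx2-2, 9 further H3K27ac regions belonged to 6430503K07Rik, Nkx2-2os and Gm56467, with 5 lower and 4 higher. Inside the Nkx2-2 gene body as the tables give it, the sum was 506 and 425 CPM in Control against 441 and 436 in Isl1CKO, with overlapping groups. Pdx1 lay between H3K27me3 domains of other ParaHox genes. Of 16 further H3K27me3 regions around it, 9 measured lower and 7 higher, where 47.5% of all tested regions measured lower. The 2 at an unadjusted p below 0.05 are given first, and 2.98% of all regions were lower at that level. The Gsx1 domain upstream measured 711 ± 1.58 CPM in Control against 536 ± 46.8 in Isl1CKO (SD, n = 2), which is -0.41 (SE 0.15) on the log2 scale. The first Cdx2 domain downstream measured 664 ± 16.9 and 489 ± 60.3 (SD, n = 2), at -0.44 (SE 0.16). The second Cdx2 domain measured 603 ± 122 in Control against 539 ± 23.4 in Isl1CKO (SD, n = 2), with overlapping groups and an estimate of -0.16 (SE 0.17). All 3 domains stood at an edgeR adjusted p of 1.00. The paralogs described below, Gsx1 among them, were mostly lower with TMM scaling but split into 11 lower and 12 higher with loess offsets. Per length, Gsx1 and the first Cdx2 domain exceeded Pdx1 in Control, at 66.9 and 76.3 against 14.7 CPM per kb.

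Genes known as targets of these factors in beta cells measured lower in H3K27ac more often than higher. Of 16 such genes 13 had a tested region, of which 11 measured lower and 2 higher. Their median was -0.88 on the log2 scale, beside -0.03 for all regions. With the authors' implied sizes 7 of the 13 were lower and 6 higher, at a median of -0.25, beside 0.61 for all regions. Both Isl1CKO libraries were below both Control libraries at 7, beside 19.4% of all regions. EdgeR called 0, and 5 were lower at an unadjusted p below 0.05, beside 3.12% of all. These were Abcc8, the sulfonylurea receptor of the potassium channel (-1.75, SE 0.45), Kcnj11, the pore subunit of that channel (-0.88, SE 0.32), Glp1r, the GLP-1 receptor (-1.22, SE 0.44), Mafa, a beta cell transcription factor (-1.70, SE 0.69), and Pcsk1, a prohormone convertase (-1.44, SE 0.61), the last of which was named after its values were seen. Kcnj11 measured 188 and 154 CPM in Control against 89.8 and 96.3 for Isl1CKO over its start (chromosome 7, 45746100 to 45750616). Its edgeR adjusted p was 0.846. Islet endocrine markers split in H3K27ac into 7 higher and 4 lower, with a median of 0.14 and Scg2 at -3.21 (SE 1.07). Acinar markers split into 1 higher and 2 lower, with Cpa1 at -1.98 (SE 0.52) and sums that overlapped between genotypes. Ductal markers split into 2 higher and 4 lower. The part of cell composition in these values was not tested. For H3K27me3, 7 target genes had a tested region, 4 higher and 3 lower, with a median of 0.14 that was -0.17 without Control replicate 2 and -0.63 with the authors' implied sizes.

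The direction of partner transcription factors of islet cells depended on the scaling. For H3K27ac, 20 of 28 had a tested region, with 12 higher and 8 lower and a median of 0.07, and edgeR called 0 and had 0 at an unadjusted p below 0.05. With loess offsets they split into 10 and 10, and without Control replicate 2 into 8 higher and 12 lower. With the authors' implied sizes 19 were higher and 1 lower, and their median was 0.73, beside 0.61 for all regions. For H3K27me3, 14 had one, with 6 higher and 8 lower and a median of -0.07, which was 0.04 without Control replicate 1 and 0.05 with library totals. With the authors' implied sizes 2 were higher and 12 lower, at a median of -0.63, beside -0.51 for all.

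Paralogs of the 5 genes, from the NKX, PAX, ParaHox and related homeobox families, were mostly in H3K27me3 domains. Of 27, 23 had an H3K27me3 region and 4 an H3K27ac region. In H3K27me3, 20 of the 23 measured lower and 3 higher with TMM scaling, with a median of -0.23, but with loess offsets 11 were lower and 12 higher. Both Isl1CKO libraries were below both Control libraries at 12, beside 16.7% of all regions, and edgeR called 0. At an unadjusted p below 0.05, where 2.98% of all regions were lower, stood 4, namely En2 (-0.39, SE 0.13), Gbx1 (-0.31, SE 0.14), Gsx1, given above, and Nkx1-1 (-0.25, SE 0.11). The Mnx1 domain, at -0.42, lay on the lower side with these. H3K27me3 at markers of mesenchymal cells also measured lower with TMM scaling. Of 8, 4 had a region, and all 4 were on the lower side, where 47.5% of all tested regions were. Their sum was 1398 and 1347 CPM in Control against 1016 and 973 in Isl1CKO. Whether this holds with loess offsets, as it did not for the paralogs, is not given for these markers. Twist1 (-0.64, SE 0.20) and Pdgfra (-0.42, SE 0.14) among them had an unadjusted p below 0.05 and an edgeR adjusted p of 1.00, and Col1a1, Col3a1, Dcn and Prrx1 had no region. The sums overlapped between genotypes for acinar, endothelial and glial and neural markers, and for ductal ones they were 67.0 and 59.3 against 57.7 and 49.3. Of 11 islet endocrine markers 3 had a region, with sums of 15.0 and 13.5 against 28.2 and 48.0. These sums rest on few counts and single libraries. Pcsk1n held 7 and 0 counts in Control against 55 and 1 in Isl1CKO. Isl1, itself the deleted gene, held 5 and 15 against 9 and 71, and both had overlapping groups. Of the immune markers, 0 of 8 had a region. The part of other cell types in this was not tested. In H3K27ac, the 4 paralogs split into 2 higher and 2 lower, with a median of -0.39 that was 0.38 with the authors' implied sizes, and without Control replicate 2 all 4 were lower. One of them, Nkx6-2, a close relative of Nkx6-1, held 13 and 49 counts in Control against 3 and 2 in Isl1CKO (-2.73, SE 1.23; edgeR adjusted p 0.850), or -1.85 without Control replicate 2.

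By pattern over the histone libraries, the genes nearest to each factor were found by Euclidean distance of log2(CPM + 1) at the highest promoter region. Nkx6-1 lay nearest to Pitpna (0.112) and Kmt2d (0.115), and Nkx2-2 to Kiss1r (0.120) and Gm57118 (0.141), over 4 H3K27ac libraries and 12572 genes. Pdx1 lay nearest to Sema6c (1.27) and Spock2 (1.39), and Mnx1 to Tox2 (1.47) and Aldh1a3 (1.49), over 8 libraries and 1432 genes with both marks. Pax6 lay farther from its nearest genes, with Jph4 at 2.82 and Epb41l1 at 3.67, although the median distance of all genes from it was 10.3. These distances describe levels and carry no test.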

How the data were processed

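CUT&Tag libraries for H3K27ac and H3K27me3 (8) and ISL1 (3) were grouped by the genotype in the sample labels. Bowtie2 2.3.5.1, Picard 2.27.4, MACS2 2.2.6, ChIPseeker 1.38.0, edgeR 4.0.16 and GRCm39 are named in the submitters' processing notes. The authors deposited raw counts per region and library, with a log2 fold change and log2 abundance, a likelihood ratio score and both raw and adjusted p-values. For ISL1, the deposited table gives a score per window, a whole number of no stated unit. How peaks were merged into regions is not given in the sources used here. Unused columns of per-sample values numbered 0.

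Chromosome labels of the histone files matched those of the ISL1 file for 7.47% (H3K27ac) and 9.23% (H3K27me3) of regions as written, and for 100% after relabelling by the alphabetical order of chromosome names. Repeated lines (108 and 90) were dropped.

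Counts were fitted over all regions with edgeR 4.0.16 in R 4.3.3: filterByExpr (30036 and 19434 regions kept), TMM, the quasi-likelihood test and Benjamini-Hochberg adjustment, called below 0.05. Scripts were tested on simulated data. Values are TMM-scaled CPM. A count of 0 allows up to 3 counts, or between 1.64 and 4.56 CPM (H3K27ac) and between 1.28 and 2.64 CPM (H3K27me3), for counting error only. PCR copies are not independent molecules. Alternatives were DESeq2 1.42.0, other scalings, no filter, summed regions, a replicate block and leaving out each library. The sizes implied by the authors' fold changes were recovered from their table with a dispersion of 0.04, within 0.05 (log2) for 100% of regions.

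All regions of the 5 genes were counted. Values per library were given for the highest promoter and the highest other region of each gene and mark and for regions at an unadjusted p below 0.05. Other Pdx1, Mnx1 and untested regions were added after their values were seen. From each list of related genes up to 4 were named, at an unadjusted p below 0.05. The 5 genes and all lists were chosen with earlier results of these data known. Promoter sequences came from RefSeq on GRCm38.p6, and no coordinates were converted. A RefSeq entry for Nkx2-2 starts 9918 bp from the 3′ end of the gene, whereas the tables give the gene 16698 bp, so it was not printed.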

Additional observations from a re-analysis of the deposited data

How the results depend on the processing

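Direction was the same under all alternatives at 7 of 14 H3K27ac and 3 of 8 H3K27me3 regions of the 5 genes. The cause of the differences was not tested. Over the whole table edgeR called 0 regions for both marks, against 29 H3K27ac and 123 H3K27me3 regions by DESeq2 and 3 H3K27ac regions with the authors' implied sizes. Leaving out 1 library gave 0 to 900 called H3K27ac regions (900 without Control replicate 1, 15 without Control replicate 2) and 0 to 1 of the 14.

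With the authors' implied sizes, H3K27ac log2 fold changes became 0.84 (Pdx1 start), 0.78 (Nkx6-1 at 8453 bp), 0.22 (Nkx2-2 upstream), 0.58 (Pax6 start), 0.026 (median around Pax6) and 0.38 (paralog median). H3K27me3 values became -0.28 (Pdx1 start), -0.23 (Mnx1 at 7320 bp) and -0.63 (target gene median). Unfiltered, the Pdx1 start stood at 0.0096. Summed by class, the distal Mnx1 H3K27me3 regions stood at -0.11. Loess offsets gave -0.80 at the Pax6 H3K27me3 region and medians of -0.034 (H3K27ac, partners), 0.038 (H3K27me3, partners) and 0.0073 (H3K27me3, paralogs). Library totals gave 0.053 (H3K27me3, partners).

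Leaving out 1 library, H3K27ac ranged from -0.63 to 0.44 at the Pdx1 start, -1.24 to 1.02 at Nkx6-1 8453 bp, -1.37 to 0.64 at Nkx6-1 2612 bp, -0.22 to 0.99 at Nkx6-1 -1291 bp (-0.12 without Isl1CKO replicate 1), -0.052 to 0.56 at the Nkx2-2 start and -1.82 to 0.11 at Nkx2-2 -2914 bp. H3K27me3 ranged from -0.37 to 0.94 at the Pdx1 start, -2.51 to 0.89 at the distal Nkx6-1 region, -2.76 to 0.46 and -0.46 to 1.44 at the distal Mnx1 regions and -5.88 to 2.54 at Pax6. List medians ranged from -0.075 to 0.28 for H3K27ac of partners, -0.16 to 0.042 for H3K27me3 of partners and -0.17 to 1.07 for H3K27me3 of target genes (-0.12 without Isl1CKO replicate 2).

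Control H3K27ac percentiles per kb were 64.2 to 68.1 for Pdx1, 57.6 to 60.0 for Nkx6-1, 73.4 to 93.4 for Nkx2-2, 10.2 to 96.7 for Mnx1 and 66.7 to 68.7 for Pax6 from single Control libraries. Those of H3K27me3 were 80.5 to 83.2 for Mnx1. Per region they were 90.4, 95.004 and 99.8 for Pdx1, Nkx6-1 and Pax6 in H3K27ac, and 92.8 and 5.45 for Mnx1 and Pax6 in H3K27me3. At an ISL1 value of at least 5, 3 of the genes counted at E14.5 and 0 at P9.

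The labels do not say that replicate numbers pair these libraries. With 2 pairs per mark, deviations of same-numbered libraries correlated at 0.05 for H3K27ac and -0.01 for H3K27me3. So few libraries cannot exclude a pairing. With a replicate block edgeR called 0 regions for either mark, and the Pax6 H3K27me3 region turned to -0.16. Single libraries limit the Mnx1 start in H3K27ac and the Pax6, distal Nkx6-1 and untested upstream Pdx1 regions in H3K27me3.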
